A study of Mus musculus with 20 samples.

Results

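The major histocompatibility complex (MHC) class II antigen presentation genes were described here in the hippocampus of humanized APOE mice. The 9 genes were chosen by name: H2-Aa, H2-Ab1, H2-Eb1, Cd74, Ciita, H2-DMa, H2-DMb1, H2-DMb2 and H2-Oa. All 9 had a row among the 33119 genes of the count table, and all 9 passed the filter on low counts that left 21724 genes for testing. RNA from the hippocampus of 20 mice was sequenced in bulk. The mice were C57BL/6, 16 months of age, and homozygous for a human APOE allele that replaces the mouse gene, either hAPOE3 or hAPOE4, so that no group carried mouse Apoe. They formed 4 groups of 5, the males and the females of each genotype. The labels name no treatment, the replaced allele is carried by all cells of the animal, and blood was flushed from the brain with saline before dissection. The comparisons ask whether APOE genotype, sex or both went with a different level of antigen presentation transcripts in the aged hippocampus. As a check of the tissue, 6 hippocampal neuron genes summed to 540 to 786 CPM (counts per 1000000 library counts) in 16 mice and to 362 to 447 CPM in the other 4, the hAPOE3 males S157 and S158 and the hAPOE4 males S176 and S178, so that these libraries stood apart. Of the 6 genes 0 were called between any groups.

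MHC class II molecules are paired alpha and beta chains that carry peptides of engulfed proteins to the cell surface for recognition by CD4 T cells. The invariant chain Cd74 holds the groove of a new class II molecule closed, and the H2-DM and H2-O proteins govern its replacement by a peptide. The transactivator Ciita switches class II genes on in professional antigen presenting cells and, after interferon gamma, in other cells. In the unstimulated brain class II is known mainly from macrophages and dendritic cells of the borders, that is the meninges, the spaces around vessels and the stroma of the choroid plexus, and most resting microglia carry little. Mrc1, a mannose receptor, marks border macrophages, and Ttr, which encodes transthyretin, is a very abundant transcript of the choroid plexus epithelium. These 2 genes were therefore read in each mouse beside the class II genes. In bulk RNA, fewer cells of a type and less RNA per cell cannot be told apart.

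Class II promoters share an arrangement of short boxes to which RFX, CREB and NF-Y factors bind and on which Ciita assembles. RefSeq promoter sequences (build GRCm38.p6, 250 bases before to 50 after the start) were found for 6 of the 9 genes, with 7 promoters in all, since H2-DMa had a pair of starts. The letters GATTGG, the core of the NF-Y box, were searched on the strand of the gene. They were searched together with TGANG, the start of the X2 box, which does not overlap GATTGG. The distance between the starts of the motifs was 20 to 30 bases. This arrangement was settled after the sequences had been looked at. It was found in the promoters of H2-Aa, H2-Eb1, H2-DMb1 and H2-DMb2. On the strand of the gene it was held by 0.473% of all 32544 promoters of the same length, and on either strand by 0.842%. With both strands searched, GATTGG alone was held by 16.1% of all promoters and TGANG alone by 89.4%. H2-Oa and 1 of the H2-DMa promoters held GATTGG on the strand of the gene without TGANG at that distance. The windows of an alpha chain, a beta chain and a DM chain gene are shown, 5′ to 3′ on the strand of the gene, with TGANG and GATTGG in capitals, because H2-Aa and H2-Eb1 varied together across mice, whereas H2-DMb2 passed the test of a relation with neither.
H2-Aa: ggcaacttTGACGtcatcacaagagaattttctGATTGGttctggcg
H2-Eb1: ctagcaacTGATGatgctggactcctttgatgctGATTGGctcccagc
H2-DMb2: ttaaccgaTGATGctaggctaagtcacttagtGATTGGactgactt
The H2-Aa window lies at chr17:34287859-34287905 on the minus strand, the H2-Eb1 window at chr17:34305773-34305820 on the plus strand and the H2-DMb2 window at chr17:34145126-34145171 on the plus strand. Counted from the first TGANG in range, the motif starts were 25 bases apart in H2-Aa, 26 in H2-Eb1, 27 in H2-DMb1 and 24 in H2-DMb2. In H2-Eb1 another TGATG overlaps the capitalized one and also starts 20 to 30 bases before GATTGG. Which of them belongs to the X2 box was not tested. A match of letters is a description of the sequence and not a measured binding site.

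In the annotation of build GRCm38, 7 of the 9 genes lie in 1 region of chromosome 17, in the order H2-Oa (34092340 to 34095234), H2-DMa (34119541 to 34139101), H2-DMb2 (34143307 to 34151555), H2-DMb1 (34153072 to 34160230), H2-Ab1 (34257689 to 34269419), H2-Aa (34282744 to 34287823, on the minus strand) and H2-Eb1 (34305867 to 34316674). Ciita lies on chromosome 16 (10480059 to 10528418) and Cd74 on chromosome 18 (60803848 to 60812652). All are protein-coding. H2-DMb1 and H2-DMb2 are close copies of each other, so the split of reads between them is uncertain. Exons of Ciita, H2-DMa and H2-Oa overlap exons of Dexi, Brd2 and BC051537 on the opposite strand, and Cd74 contains a microRNA gene on its own strand. Strand settings of the counting were not given in the sources used here.

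Every class II gene was detected in every mouse, at a low level. Levels were CPM after scaling by the trimmed mean of M-values (TMM). Total counts ran from 35778879 to 52520279 per mouse, and the class II genes took between 4 counts (H2-DMb2) and 692 counts (H2-DMa) of these. Per kilobase of merged exons, H2-DMa, an alpha chain of the peptide exchanger H2-DM, stood highest at 3.01 ± 0.625 CPM per kb (SD, n = 20), followed by Cd74 at 2.87 ± 1.95, and these neighbours differed by less than their spread. H2-DMb1 (1.13 ± 0.348 CPM per kb) and H2-Eb1 (1.07 ± 0.757) followed and were likewise within each other's spread. H2-Ab1 (0.641 ± 0.484 CPM per kb) and H2-Aa (0.597 ± 0.488) came next, then H2-Oa (0.331 ± 0.0998) and H2-DMb2 (0.220 ± 0.107). Ciita was lowest at 0.0778 ± 0.0276 CPM per kb. The level of Ttr over the same mice was 1531 ± 1663 CPM per kb and that of Mrc1 0.631 ± 0.414.

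The classical chains and the invariant chain were highest in 3 hAPOE4 females and varied widely inside every group. In order of mouse number, as for all genes here, Cd74 measured 11.4, 11.0, 10.6, 5.72 and 2.27 CPM in the 5 hAPOE4 females (8.21 ± 4.05, SD). In the hAPOE3 females it measured 7.76, 2.04, 2.66, 5.17 and 4.20 CPM (4.36 ± 2.27). In the hAPOE4 males it was 3.86, 1.70, 5.75, 2.36 and 5.80 CPM (3.90 ± 1.89). In the hAPOE3 males it was 1.77, 0.975, 2.33, 2.24 and 6.59 CPM (2.78 ± 2.20). The groups overlapped, since 1 hAPOE4 female, mouse S168, lay below the median of the hAPOE3 females.

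H2-Eb1, a beta chain, followed the same mice. It measured 5.18, 5.17, 4.45, 2.53 and 0.430 CPM in the hAPOE4 females (3.55 ± 2.05), against 2.74, 0.478, 0.714, 1.45 and 1.62 CPM in the hAPOE3 females (1.40 ± 0.890). In the hAPOE4 males it was 2.41, 1.23, 1.95, 1.38 and 3.12 CPM (2.02 ± 0.774), and in the hAPOE3 males 0.911, 0.764, 0.913, 1.32 and 2.77 CPM (1.34 ± 0.828). The lowest value of all 20 mice came from an hAPOE4 female, again mouse S168, in the group that also held the 3 highest.

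H2-Ab1, the beta chain that pairs with H2-Aa, measured 4.38, 3.94, 3.20, 2.55 and 0.693 CPM in the hAPOE4 females and 1.94, 0.478, 0.742, 1.49 and 1.15 CPM in the hAPOE3 females. In the hAPOE4 males it was 1.94, 0.376, 2.07, 0.667 and 2.56 CPM, and in the hAPOE3 males 0.241, 0.369, 0.553, 0.939 and 2.64 CPM. Of these, 4 of the 5 hAPOE4 females lay above every hAPOE3 female and the remaining one lay among them.

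H2-Aa, the alpha chain, measured 6.07, 5.95, 5.89, 2.74 and 0.621 CPM in the hAPOE4 females and 3.90, 0.654, 0.685, 1.86 and 2.02 CPM in the hAPOE3 females. In the hAPOE4 males it was 2.03, 0.802, 2.53, 1.17 and 2.17 CPM, and in the hAPOE3 males 0.723, 0.290, 0.841, 1.34 and 3.03 CPM. Its lowest hAPOE4 female lay below all of the hAPOE3 females.

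**Figure D1:**
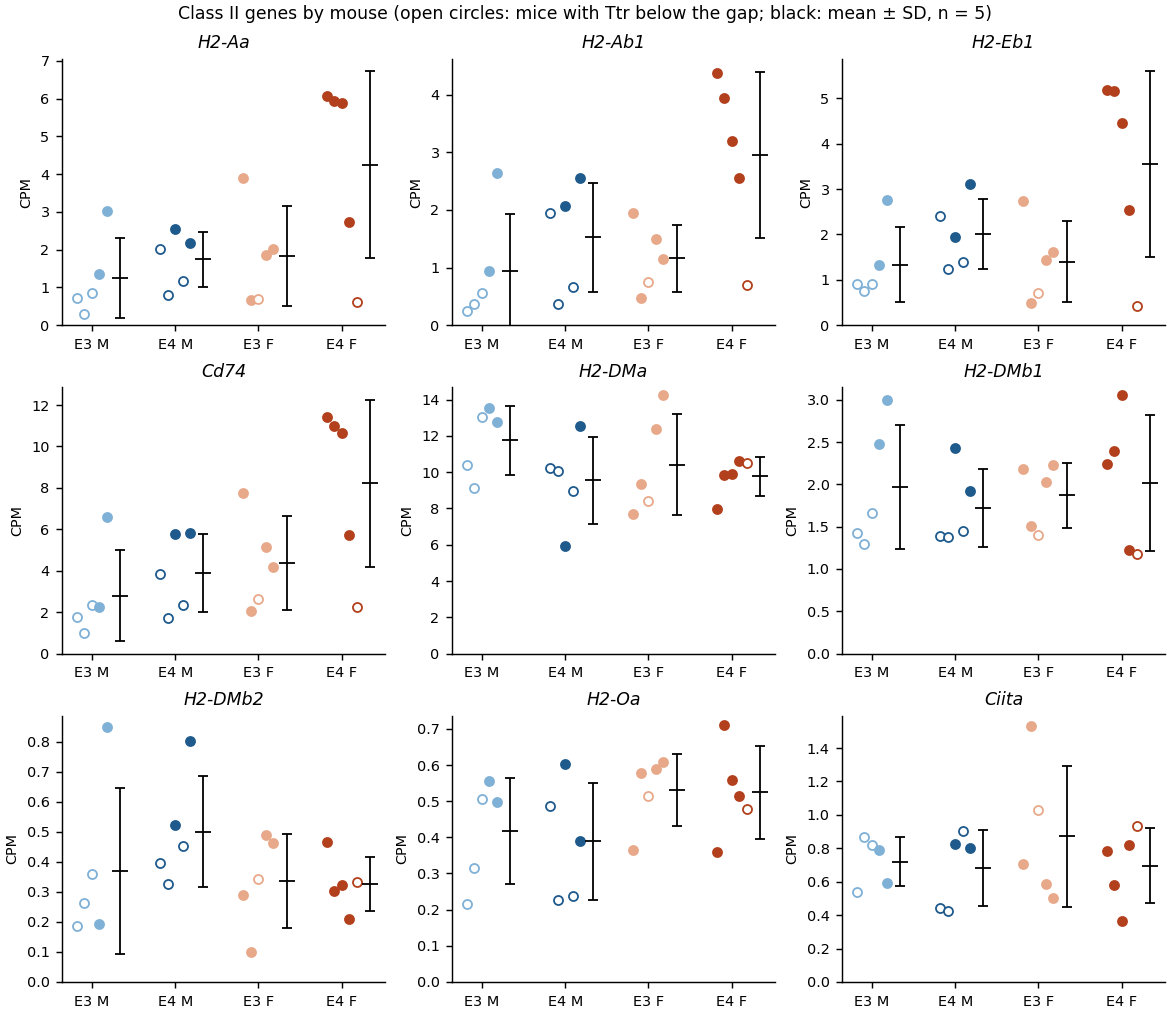
CPM of the 9 class II genes in each mouse, by group (E3 and E4, hAPOE3 and hAPOE4; M and F, males and females); black bars are the mean ± SD of 5 mice, cut at 0 where the SD exceeds the mean, and open circles are the 8 mice with at most 115 CPM of Ttr. Cd74, H2-Aa, H2-Ab1 and H2-Eb1 are highest in the same hAPOE4 females, while Ciita and H2-DMa show no such group of mice.

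Of the loading and regulatory genes, H2-DMb1 was high in the same 3 hAPOE4 females. This partner chain of H2-DMa measured 2.24, 2.39, 3.05, 1.22 and 1.17 CPM in the hAPOE4 females and 2.18, 1.51, 1.40, 2.03 and 2.23 CPM in the hAPOE3 females. In the hAPOE4 males it was 1.39, 1.38, 2.43, 1.45 and 1.93 CPM, and in the hAPOE3 males 1.42, 1.29, 1.66, 2.48 and 2.99 CPM, so the groups overlapped and mouse S168 was again the lowest hAPOE4 female. H2-DMa ranged from 5.95 to 14.3 CPM over the 20 mice, with means of 9.78 ± 1.07 in hAPOE4 females and 10.4 ± 2.79 in hAPOE3 females, and of 9.55 ± 2.40 in the males with hAPOE4 and 11.8 ± 1.90 in those with hAPOE3 (SD, n = 5 each). H2-DMb2, the copy of H2-DMb1, ranged from 0.101 to 0.849 CPM. H2-Oa, a chain of the inhibitor of H2-DM, ranged from 0.214 to 0.711 CPM. Ciita measured 0.782, 0.582, 0.365, 0.820 and 0.932 CPM in the hAPOE4 females, so the mice with the highest Cd74 were not those with the highest Ciita. Its highest level, 1.53 CPM, came from the hAPOE3 female (mouse S145) that had the lowest Cd74 and H2-Eb1 of its group.

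None of the 9 genes passed the test between hAPOE4 and hAPOE3 females after adjustment over all genes. edgeR's quasi-likelihood test with Benjamini-Hochberg adjustment called 0 of 9, where 0.667% of all tested genes were called. At an unadjusted p below 0.05, 3 of the 9 genes had positive differences, H2-Aa, H2-Ab1 and H2-Eb1, beside 3.57% of all genes in that direction. H2-Eb1 was at a difference of 1.34 ± 0.52 on the log2 scale (SE; unadjusted p = 0.0177, adjusted p = 0.344 by edgeR). H2-Ab1 was at 1.34 ± 0.59 (unadjusted p = 0.0336, adjusted p = 0.437) and H2-Aa at 1.22 ± 0.58 (unadjusted p = 0.0499, adjusted p = 0.495). Cd74 was at 0.91 ± 0.49 (adjusted p = 0.560). The other 5 genes lay between -0.32 (Ciita) and 0.11 (H2-DMb1). All 9 genes overlapped between the groups, where 3.27% of all genes did not. The median of the 9 genes was 0.11, against 0.0013 for all tested genes. DESeq2 also called 0 of 9, with 2 below an unadjusted p of 0.05, and limma on the deposited normalized counts called 0 of 9 with 0 below it.

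In males the same 4 genes had differences of one sign with wide errors. None of the 9 was called between hAPOE4 and hAPOE3 males (0.621% of all genes) and 0 of 9 had an unadjusted p below 0.05 (9.06% of all genes), by edgeR, DESeq2 and limma alike. All 9 overlapped between the groups, where 1.44% of all genes did not. H2-Ab1 was at 0.65 ± 0.59 on the log2 scale, H2-Eb1 at 0.58 ± 0.52, Cd74 at 0.48 ± 0.49 and H2-Aa at 0.46 ± 0.60. H2-DMa was at -0.30 ± 0.18 (adjusted p = 0.608 by edgeR), the lowest adjusted p of the 9. The hAPOE3 male S158 weighed on these values: without it H2-Ab1 was at 1.51, H2-Eb1 at 1.04, Cd74 at 1.09 and H2-Aa at 1.11. In that fit 3 of the 9 genes had an unadjusted p below 0.05, beside 10.1% of all genes, with a lowest adjusted p of 0.359 (H2-Ab1, edgeR). The lowest values without 1 mouse were 0.39 for H2-Ab1 and 0.37 for H2-Eb1 without the hAPOE4 male S178, and 0.26 for Cd74 and 0.22 for H2-Aa without the hAPOE3 male S155.

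The genotype difference was not shown to differ between the sexes. For the interaction, 0 of 9 genes were called (0.184% of all genes) and 0 had an unadjusted p below 0.05 by edgeR, DESeq2 or limma (2.54% of all genes by edgeR). The estimates were 0.76 ± 0.73 for H2-Eb1, 0.75 ± 0.83 for H2-Aa, 0.69 ± 0.83 for H2-Ab1 and 0.44 ± 0.69 for Cd74, each interval including 0. Without the hAPOE3 male S158 they were 0.30, 0.11, -0.17 and -0.17 in the same order, and without the hAPOE3 female S144 they were 1.15, 1.23, 0.95 and 0.75. With the sexes averaged, 0 of 9 were called against 2.45% of all genes, and 2 had positive differences at an unadjusted p below 0.05 (8.24% of all genes in that direction). These were H2-Ab1 at 1.00 ± 0.42 and H2-Eb1 at 0.96 ± 0.37 (adjusted p = 0.169 for H2-Eb1 by edgeR). DESeq2 gave H2-Eb1 an adjusted p of 0.0845 in the same comparison, also short of the threshold.

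In hAPOE4 mice the sexes were compared with the same hAPOE4 females that entered the genotype comparison. Of the 9 genes 0 were called (0.437% of all genes), and 2 had an unadjusted p below 0.05 with higher values in females, where 2.35% of all genes did. All 9 overlapped between the sexes in each genotype, where 0.723% of all genes did not. H2-Aa was at 1.29 ± 0.58 in hAPOE4 females against hAPOE4 males (unadjusted p = 0.0395, adjusted p = 0.796 by edgeR) and Cd74 at 1.07 ± 0.49 (unadjusted p = 0.0397, adjusted p = 0.798). H2-Ab1 was at 0.95 ± 0.58 and H2-Eb1 at 0.82 ± 0.51. In hAPOE3 mice 0 of 9 were called (0.0414% of all genes) and 0 had an unadjusted p below 0.05 (5.22%), by edgeR, DESeq2 and limma, with Cd74 at 0.64 ± 0.49 and H2-Eb1 at 0.06 ± 0.53. Without S158 these were 1.25 and 0.52, and without the hAPOE3 female S144 they were 0.33 and -0.33. With the genotypes averaged, 0 of 9 were called (0.129% of all genes), while Cd74 (0.86 ± 0.35) and H2-Aa (0.91 ± 0.42) had an unadjusted p below 0.05, in a comparison where 3.79% of all genes were higher at that level.

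**Figure D2:**
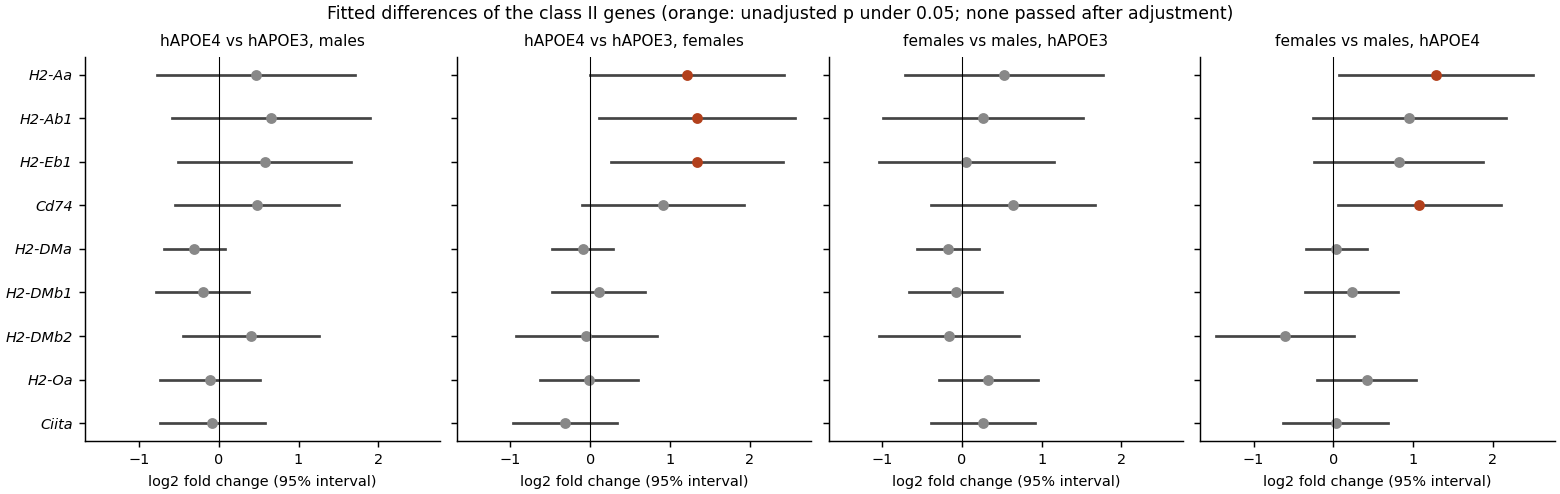
Log2 fold changes of the 9 class II genes with 95% intervals from the fit over all 20 mice, in the genotype comparison of each sex and the sex comparison of each genotype. H2-Aa, H2-Ab1 and H2-Eb1 in the female comparison and H2-Aa and Cd74 in the hAPOE4 comparison have an unadjusted p below 0.05, and no gene passed after adjustment.

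Across mice, the 3 classical chains and Cd74 rose and fell together, and are called the class II block here. Their 6 pairwise Pearson r of log2 CPM lay between 0.87 and 0.97 over the 20 mice, and between 0.87 and 0.97 again after group means were subtracted. The tightest pair was H2-Aa with Cd74 (r = 0.97, Spearman's rho = 0.93, permutation p = 1e-05, the smallest that 100000 resamples can give, adjusted p = 9e-05 over 54 relations). H2-DMb1 followed the 4 at r of 0.63 to 0.72. H2-DMb2 passed with none of the 4 over the 20 mice, and with group means subtracted it passed with H2-Ab1 (r = 0.61, adjusted p = 0.026) and Cd74 (r = 0.60, adjusted p = 0.0305) by permutation. Ciita did not: its r with the 4 genes lay between -0.51 (H2-Eb1, adjusted p = 0.0493 by permutation) and -0.25. The relation with H2-Eb1 did not pass by rank (rho = -0.51, adjusted p = 0.0573) or with group means subtracted (r = -0.50, adjusted permutation p = 0.114). The r of H2-DMa with the 4 lay between -0.14 and -0.08. Among the 8 mice with at most 115 CPM of Ttr, the 6 pairs of the block had r between 0.43 and 0.87. There 0 of the 36 class II pairs passed by the exact permutation test. In the other 12 mice the 6 pairs had r between 0.93 and 0.97. All r were taken over the same libraries, and H2-Oa, H2-DMb2 and Ciita rest on few counts.

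**Figure D3:**
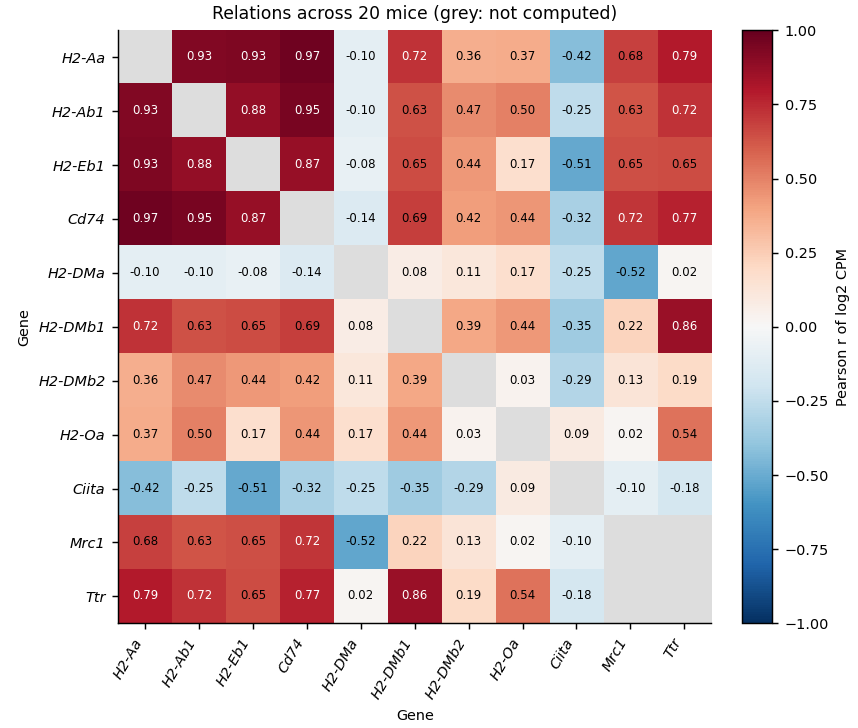
Pearson r of log2 CPM over 20 mice between the 9 class II genes, Mrc1 and Ttr, with grey for pairs not computed. H2-Aa, H2-Ab1, H2-Eb1 and Cd74 form a block of r from 0.87 to 0.97, H2-DMb1 has its highest r with Ttr, and Ciita is at or below 0.09 with every other class II gene.

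Over the 20 mice the block had positive relations with the choroid plexus transcript. Ttr lay between 37.3 and 115 CPM in 8 mice and between 440 and 5906 CPM in the other 12, with 3 hAPOE3 males, 3 hAPOE4 males, 1 hAPOE3 female and 1 hAPOE4 female in the lower set. Thus 6 of 10 males and 2 of 10 females were in the lower set. The 3 hAPOE4 females that were highest in each gene of the block, S164, S165 and S166, also had the highest Ttr of the 20 mice. Their Ttr was 4229, 5607 and 5906 CPM, and the next highest was the hAPOE3 female S148 at 3668 CPM. The 4 males of the higher set were the 4 mice with the lowest summed neuron genes, and the part of that difference in the class II values was not tested. The gap between the sets was 1.93 in log2 CPM, short of the 2 set for giving no r over all mice, so r over all mice is given with r inside each set. Over 20 mice, r with Ttr was 0.79 for H2-Aa (rho = 0.81, permutation p = 5e-05, adjusted p = 0.000337), 0.77 for Cd74, 0.72 for H2-Ab1 and 0.65 for H2-Eb1, with adjusted p of at most 0.00705 by permutation. H2-DMb1 had r = 0.86 with Ttr (rho = 0.82, adjusted p = 0.000231 by permutation) and H2-Oa r = 0.54 (adjusted p = 0.0397 by permutation), which did not pass by rank (rho = 0.52, adjusted p = 0.0546). Ciita (r = -0.18), H2-DMa (0.02) and H2-DMb2 (0.19) did not pass. Without the 2 mice farthest from the median of Ttr the r of the 4 genes stayed between 0.60 and 0.76 and passed, whereas that of H2-Oa (0.54, adjusted p = 0.0549) did not. With group means subtracted over the 20 mice, 5 of the 9 genes passed a positive relation with Ttr, at a highest r of 0.92. Cd74 was at r = 0.78 with Ttr in that setting.

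Inside the sets the relation with Ttr was no longer detectable for the 4 genes. In the 12 mice with the higher Ttr, r with Ttr was 0.53 for H2-Aa, 0.46 for Cd74, 0.37 for H2-Eb1 and 0.28 for H2-Ab1, none below an adjusted permutation p of 0.05. H2-DMb1 had r = 0.82 there (adjusted permutation p = 0.017), with rho = 0.65 not passing (0.0933). Ciita had rho = -0.76 with Ttr in these mice (adjusted permutation p = 0.0285), with r = -0.60 not passing (0.142). In the 8 mice with the lower Ttr no member passed by the exact permutation test. Between the sets, Cd74 was 2.24 ± 0.840 CPM in the 8 mice and 6.53 ± 3.17 CPM in the 12, H2-DMb1 1.39 ± 0.139 and 2.22 ± 0.527, and Ciita 0.744 ± 0.239 and 0.741 ± 0.289. Cd74 reached at most 3.86 CPM in the 8 mice, and 2 of the 12 mice, an hAPOE3 female at 2.04 CPM and an hAPOE3 male at 2.24 CPM, lay inside that range.

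Mrc1 passed the test of a positive relation with the same 4 genes and with no other class II gene. Mrc1 measured 10.6, 6.83, 8.64, 6.47 and 2.63 CPM in the hAPOE4 females and 6.86, 2.62, 3.03, 1.40 and 1.36 CPM in the hAPOE3 females. It was 3.79 ± 1.13 CPM in hAPOE4 males and 2.19 ± 1.01 CPM in hAPOE3 males. Mouse S168 was the lowest of the hAPOE4 females in Mrc1, in Ttr and in each gene of the block. The r with Mrc1 over 20 mice was 0.72 for Cd74 (rho = 0.75, permutation p = 0.00036, adjusted p = 0.00182), 0.68 for H2-Aa, 0.65 for H2-Eb1 and 0.63 for H2-Ab1, and all 4 passed (adjusted p of at most 0.00998 by permutation) and passed again without the 2 mice farthest from the median of Mrc1 (r of 0.60 to 0.68). With group means subtracted only Cd74 still passed (r = 0.58, adjusted permutation p = 0.0436), with the other 3 at r of 0.41 to 0.53. H2-DMa had an opposite sign, r = -0.52 (adjusted permutation p = 0.0481; by rank rho = -0.45, 0.0986), which did not pass without those 2 mice (r = -0.39). H2-DMb1 was at r = 0.22 with Mrc1. Among the 12 mice with the higher Ttr, r with Mrc1 was 0.78 for Cd74 and between 0.70 and 0.73 for the other 3 of the block, all 4 passing (adjusted permutation p of at most 0.0481). In the 8 mice with the lower Ttr none of the 9 genes passed with Mrc1, with r of 0.86 for Cd74, 0.80 for H2-Aa, 0.42 for H2-Ab1 and 0.33 for H2-Eb1 (adjusted p of at least 0.246 by the exact permutation test).

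**Figure D4:**
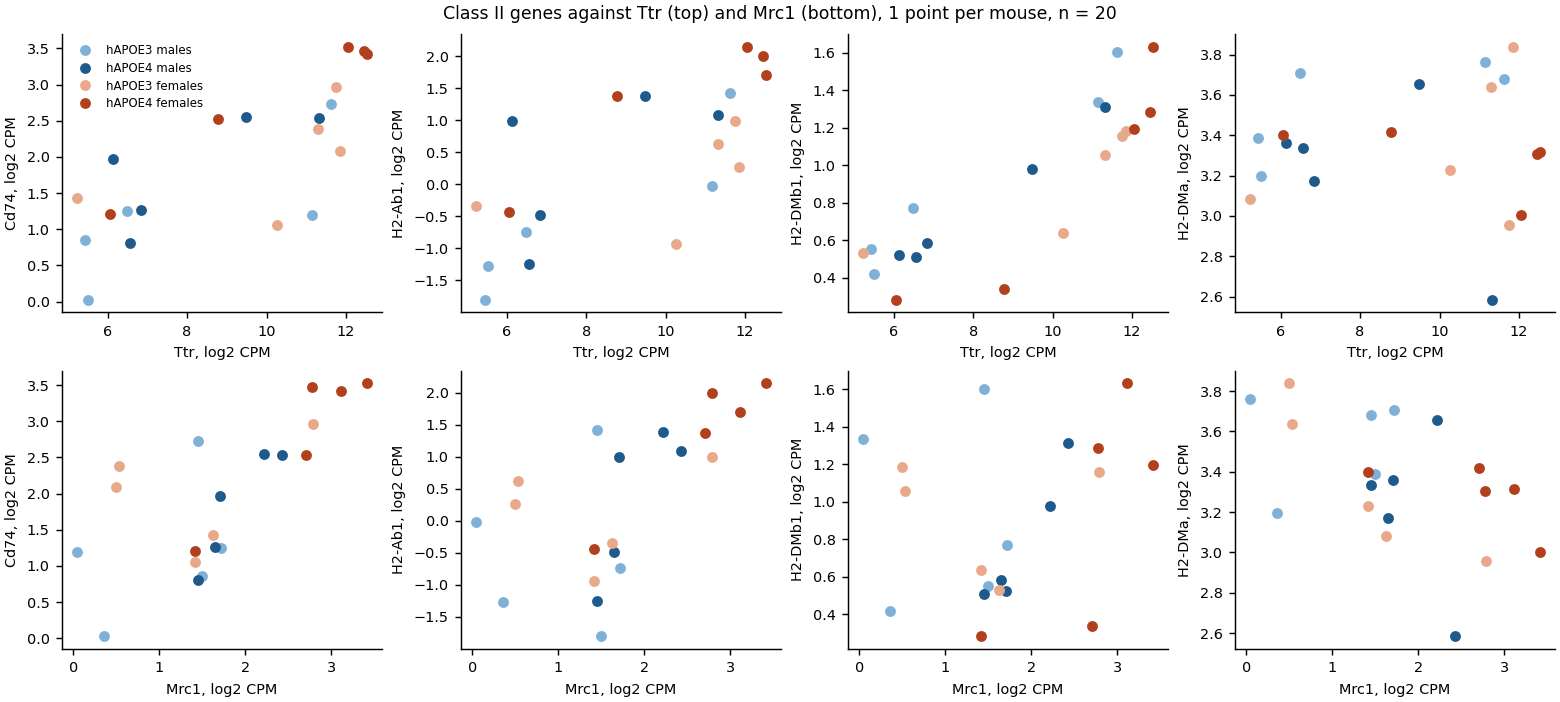
Log2 CPM of Cd74, H2-Ab1, H2-DMb1 and H2-DMa against log2 CPM of Ttr (top) and Mrc1 (bottom), 1 point per mouse, coloured by group. Cd74 and H2-Ab1 rise with both markers (r from 0.63 to 0.77), H2-DMb1 rises with Ttr alone (r = 0.86 against 0.22), and H2-DMa is flat against Ttr (r = 0.02).

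The marker levels were also held in the fit. With log2 CPM of Ttr as a covariate, the genotype difference in females was 1.14 ± 0.37 for H2-Eb1, 1.16 ± 0.41 for H2-Ab1, 1.01 ± 0.35 for H2-Aa and 0.71 ± 0.31 for Cd74. All 4 then had an unadjusted p below 0.05 (11.8% of all genes), and the lowest adjusted p was 0.193 (H2-Eb1, edgeR). With the sexes averaged the same fit gave H2-Eb1 an adjusted p of 0.0502, just outside the threshold. Between hAPOE4 females and males the differences with Ttr held were 0.26 ± 0.39 for H2-Aa, 0.18 ± 0.43 for H2-Ab1, -0.04 ± 0.39 for H2-Eb1 and 0.39 ± 0.33 for Cd74.

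With Mrc1 held instead, the genotype difference in females was 0.15 ± 0.70 for H2-Aa, 0.40 ± 0.74 for H2-Ab1, 0.42 ± 0.64 for H2-Eb1 and -0.12 ± 0.56 for Cd74. With the mean of the 10 border macrophage genes held it was -0.08 ± 0.55, 0.15 ± 0.60, 0.20 ± 0.52 and -0.27 ± 0.42 in the same order. None of these passed (unadjusted p of at least 0.519 by edgeR), and the differences with and without the covariate were not tested against each other. Between hAPOE4 females and males the differences with Mrc1 held were 0.61 ± 0.58 for H2-Aa, 0.42 ± 0.60 for H2-Ab1, 0.22 ± 0.53 for H2-Eb1 and 0.49 ± 0.46 for Cd74. Each of the 4 was thus lower than without a covariate under either marker in this comparison. Whether the class II difference was part of a difference in border macrophages was not tested.

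**Figure D5:**
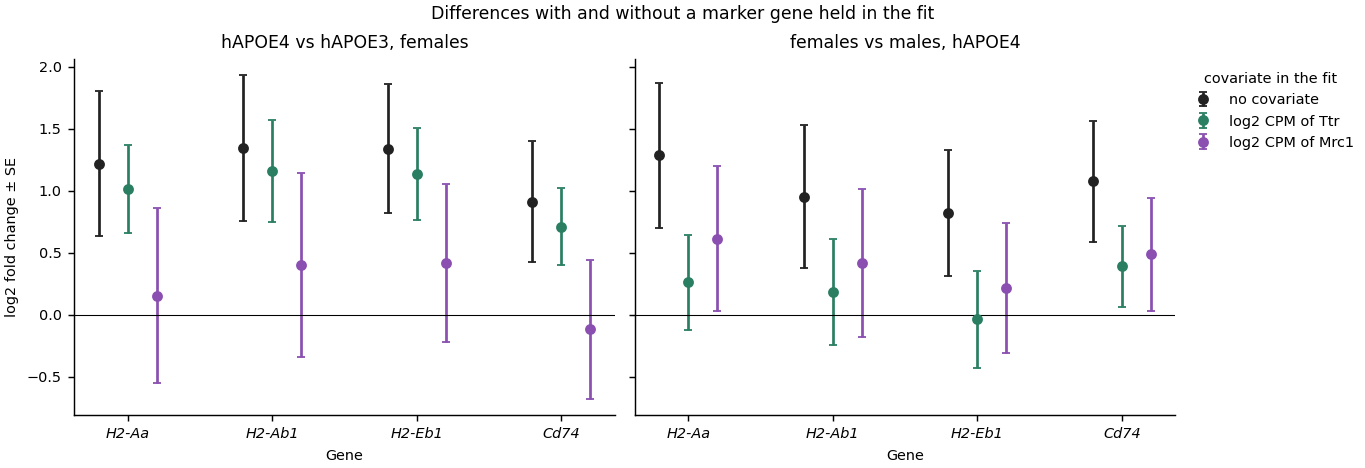
Log2 fold changes ± SE of the block genes without a covariate and with log2 CPM of Ttr or Mrc1 in the fit, for hAPOE4 against hAPOE3 females (left) and females against males in hAPOE4 mice (right). The genotype difference stays between 0.71 and 1.16 with Ttr held and lies between -0.12 and 0.42 with Mrc1 held, and the sex difference lies between -0.04 and 0.39 with Ttr held and between 0.22 and 0.61 with Mrc1 held.

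Comparisons inside the Ttr sets were added after the data had been seen. In the females with the higher Ttr, 4 hAPOE4 against 4 hAPOE3, the differences were 1.47 ± 0.45 for H2-Ab1, 1.46 ± 0.39 for H2-Eb1, 1.29 ± 0.43 for H2-Aa and 1.02 ± 0.39 for Cd74. All 4 had an unadjusted p below 0.05, where 12.1% of all genes did, and 0 were called (adjusted p from 0.141 to 0.306 by edgeR). The set did not make the markers equal between these females. Ttr was 4229, 5607, 5906 and 440 CPM in the hAPOE4 and 3430, 1225, 2531 and 3668 CPM in the hAPOE3 females. Mrc1 ran from 6.47 to 10.6 CPM in the hAPOE4 and from 1.36 to 6.86 CPM in the hAPOE3 females of the set. In the males with the lower Ttr, 3 against 3, H2-Ab1 was at 1.36 ± 0.59, H2-Aa at 1.11 ± 0.56, H2-Eb1 at 0.96 ± 0.47 and Cd74 at 0.64 ± 0.48. H2-Ab1 was the 1 of the 9 with an unadjusted p below 0.05 there, beside 4.31% of all genes (adjusted p = 1.00 by edgeR). In the males with the higher Ttr, 2 against 2, the 4 genes lay between 0.10 (H2-Aa) and 0.38 (Cd74). Between the sexes of the hAPOE3 mice with the higher Ttr, 4 females against 2 males, the 4 genes lay between -0.50 and 0.11, and in the hAPOE4 mice between 0.61 and 1.13.

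The border macrophage genes, Mrc1 among them, had positive differences as a list in the females. All 10 had positive differences between hAPOE4 and hAPOE3 females, with a median of 0.94 on the log2 scale against 0.0013 for all genes, 7 had an unadjusted p below 0.05, beside 3.57% of all genes in that direction, and 0 passed after adjustment. Between hAPOE4 females and males all 10 were likewise positive (median 0.74), with 3 below an unadjusted p of 0.05 beside 2.35% of all genes, and 0 called. In the female genotype comparison Cbr2 was at 1.56 ± 0.51, Clec10a, a lectin, at 1.34 ± 0.44, Mrc1 at 1.21 ± 0.42 and Cd209f at 1.20 ± 0.50, while Ms4a7 was at 0.16 ± 0.31. Their summed level ran from 27.1 to 67.5 CPM in hAPOE4 females, 20.3 to 46.6 in hAPOE3 females, 27.6 to 39.6 in hAPOE4 males and 20.9 to 33.0 in hAPOE3 males. None of the 10 was at 0 in any mouse. Of the 12 choroid plexus genes, all had positive differences between females and males in hAPOE4 mice (median 1.85, 5 with an unadjusted p below 0.05 beside 2.35% of all genes, 0 called) and in hAPOE3 mice (median 1.29, 2 beside 2.32% of all genes, 0 called). All 12 were also positive between hAPOE4 and hAPOE3 females (median 0.87), with 0 below an unadjusted p of 0.05. Their summed level ran from 272 to 9527 CPM over the mice. The 6 meningeal fibroblast genes had positive differences in both comparisons of hAPOE4 females (median 0.69 against hAPOE3 females and 1.09 against hAPOE4 males, 0 called), with summed levels from 65.4 to 319 CPM. Against hAPOE3 females 3 of the 6 had an unadjusted p below 0.05, beside 3.57% of all genes. Against hAPOE4 males 4 of the 6 did, beside 2.35%. The part of these cell types in the class II values was not tested beyond the fits given.

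Markers of other antigen presenting cells gave 0 calls. The 10 microglia genes had a median of 0.06 between hAPOE4 and hAPOE3 females with 0 called and 0 at an unadjusted p below 0.05, and their summed level stayed between 362 and 446 CPM in all mice. Between hAPOE4 females and males 3 of the 10 were higher at an unadjusted p below 0.05, beside 2.35% of all genes. The median of the 10 was 0.08 there, and the lowest adjusted p was 0.402 by edgeR. Of 8 dendritic cell genes 7 were tested and 0 called in any comparison, with Cd209a at 1.27 ± 0.46 and Xcr1 at -0.64 ± 0.30 between the females. In that comparison 1 of the 7 was higher at an unadjusted p below 0.05, beside 3.57% of all genes in that direction, and 1 was lower. Between hAPOE4 females and males 1 of the 7 was higher at an unadjusted p below 0.05 (adjusted p = 0.127 by edgeR), beside 2.35% of all genes. Of 6 B cell genes 4 were tested and 0 called.

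In the rest of the pathway 1 gene passed, Nfya, in the comparison with the sexes averaged, where 2.45% of all genes were called. Over the 7 comparisons the share of all genes called ran from 0.0414% to 2.45%. Among 8 genes that supply peptides for class II (cathepsins, legumain and the thiol reductase Ifi30) 0 were called in any of the 7 comparisons, with a median of 0.10 in the female genotype comparison. Among 9 promoter factors, including the RFX and NF-Y subunits, 0 were called within either sex, and Nfya, which encodes the subunit that gives NF-Y its sequence preference, was higher in hAPOE4 mice with the sexes averaged (0.27 ± 0.06, adjusted p = 0.0282 by edgeR). Rfx5 was at -0.22 ± 0.10 between the females (adjusted p = 0.459). Of 8 genes of interferon gamma signalling 7 were tested and 0 called, with Ifng itself under the filter. The ubiquitin ligases that remove class II from the surface (2 genes) and 5 genes of T cell contact, among them Cd86 and Cd40, gave 0 calls. H2-Ob, the partner of H2-Oa, was at 0.09 between the females with an adjusted p of 0.931 by edgeR.

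The genes whose level followed Cd74 most closely, with group means subtracted, are given as a description. H2-Ab1 had the highest Spearman's rho, 0.95 over 20 mice. Outside the 9 genes the 10 closest, among genes with a mean log2 CPM over 0, were Serpinh1 (0.93), a collagen chaperone, Serping1 (0.92), the C1 inhibitor, Igfbp7 (0.92), Mgp (0.91), the matrix Gla protein, Ptgds (0.91), which makes prostaglandin D2, Slc35a2 (0.90), Six3os1 (0.89), Efs (0.89), Gsn (0.89), which encodes gelsolin, and Vtn (0.89), which encodes vitronectin. Ttr stood at 0.72 and Mrc1 at 0.60 by the same measure. All rho were taken over the same libraries, with no test.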

How the data were processed

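Polyadenylated RNA of the hippocampus was sequenced by the study as paired-end reads, and the authors estimated transcript abundance with Salmon 0.91 and summed it to genes with tximport. The deposited table of estimated counts held whole numbers and was used for all main results. A deposited signal, the authors' DESeq2 normalized counts, in which the divisor differed between genes and mice, served 1 alternative. The members and gene lists were chosen with earlier results of these data known.

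Counts were filtered (filterByExpr by group), scaled by TMM and fitted with 1 mean per group over all 20 mice with edgeR 4.0.16 in R 4.3.3. Quasi-likelihood p-values were adjusted by Benjamini-Hochberg over 21724 genes in each of 7 comparisons, at a threshold of 0.05. Log2 CPM used a prior count of 2. Relations across mice were tested by permutation (two-sided, 100000 resamples, exact for 8 mice) and adjusted over 54 relations. Each library was taken as 1 mouse, replicate numbers follow accession order, and p-values measure the spread between these samples. No pair of libraries agreed within counting noise. Named genes were the 9 members, Mrc1, Ttr, list genes past a threshold, and the 10 genes closest to Cd74; other list genes were named after their values were seen. On simulated counts for the female genotype comparison (21409 genes), edgeR recovered 70% of 2-fold and 90% of 4-fold changes. The changed genes were drawn at random from all filtered genes, each with its own spread. These shares are therefore not the recovery for the class II genes, which was not simulated. Alternatives were DESeq2 1.42.0, its size factors, no filter, fits of the compared groups alone, limma 3.58.1 on log2 of normalized counts plus 1, marker covariates and leaving out each mouse. Figures were drawn with matplotlib 3.10.9.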

Additional observations from a re-analysis of the deposited data

Results flagged for a closer look

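Of 44 sets of 5 mice (9 class II genes, Mrc1 and Ttr in 4 groups), 4 held a mouse whose gap to its nearest neighbour exceeded 0.71 of the range of its group, and chance gives such a gap in about 1 set in 20. In 3 of the 4 the mouse was the hAPOE3 male S158: its Cd74 measured 6.59 CPM where the next hAPOE3 male had 2.33, its H2-Eb1 2.77 CPM where the next had 1.32, and its H2-DMb2 0.849 CPM where the next had 0.360. The same mouse had the highest Ttr of its group, 3161 CPM, with an Mrc1 of 2.70 CPM inside the range of the group. The other was the hAPOE4 male S176 with 2570 CPM of Ttr, where the next hAPOE4 male had 719. The sets are not independent, since the class II genes share mice.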

How the results depend on the processing

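The count of class II genes called stayed at 0 of 9 in all 207 recomputed counts over 7 comparisons. At an unadjusted p below 0.05 the count for hAPOE4 against hAPOE3 ran, over the fits that left out 1 mouse each, from 0 to 3 in males (3 without hAPOE3 male S158), from 1 to 4 in females (lowest adjusted p = 0.119 by edgeR, H2-Eb1, without hAPOE4 female S168) and from 1 to 4 with the sexes averaged (lowest 0.0554, H2-Ab1, without S158), and from 0 to 4 between hAPOE4 females and males. The share of all tested genes called was 0.621% (genotype, males), 0.667% (genotype, females), 0.0414% (sex, hAPOE3), 0.437% (sex, hAPOE4), 0.184% (interaction), 2.45% (genotype, sexes averaged) and 0.129% (sex, genotypes averaged), and ran over the settings that kept all mice from 0.219 to 1.07%, 0.18 to 1.59%, 0.0272 to 0.106%, 0.155 to 0.719%, 0.0737 to 0.305%, 0.29 to 5.0% and 0.0414 to 1.17%, with the DESeq2 test highest in 6 of these 7. Leaving out 1 mouse at a time it ran, in the same order, from 0.449 to 1.3%, 0.335 to 1.16%, 0.0405 to 0.0677%, 0.317 to 1.24%, 0.136 to 0.533%, 1.28 to 3.57% and 0.0633 to 0.749%, highest without the hAPOE4 male S174 in 5 of the 7 and without the hAPOE3 female S144 in the other 2. Of 513 values of single genes under other settings, 46 changed sign, none of them past a threshold, and the cause was not tested.

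With Mrc1 held, the genotype difference in males turned to -0.18 for H2-Aa and -0.12 for Cd74, in females to -0.12 for Cd74, 0.19 for H2-DMa, -0.18 for H2-DMb1 and 0.079 for H2-Oa, with the sexes averaged to -0.011 for H2-Aa and -0.12 for Cd74, and the sex difference in hAPOE3 mice to -0.17 for H2-Eb1. With Ttr held, the sex difference turned in hAPOE3 mice to -0.011 for H2-Aa, -0.038 for H2-Ab1 and -0.43 for H2-Eb1, in hAPOE4 mice to -0.037 for H2-Eb1 and -0.17 for H2-DMb1, and with the genotypes averaged to -0.23 for H2-Eb1. With the 2 Ttr sets as a block, chosen after seeing the data, it turned in hAPOE3 mice to -0.082 for H2-Ab1 and -0.39 for H2-Eb1, in hAPOE4 mice to -0.0067 for H2-DMa and -0.070 for H2-DMb1, and with the genotypes averaged to -0.13 for H2-Eb1. With the border macrophage list held, the genotype difference in females turned to -0.084 for H2-Aa, -0.27 for Cd74, 0.051 for H2-DMa and -0.38 for H2-DMb1, with the sexes averaged to -0.062 for Cd74, the interaction to -0.22 for H2-Aa, -0.18 for H2-Ab1, -0.058 for H2-Eb1 and -0.41 for Cd74, and the sex difference to -0.037 for H2-Eb1 in hAPOE3 mice, -0.095 for H2-Eb1 and -0.093 for H2-DMb1 in hAPOE4 mice and -0.066 for H2-Eb1 with the genotypes averaged. With the choroid plexus list held, the genotype difference in females turned to -0.068 for H2-DMb1, and the sex difference to -0.20 for H2-Aa, -0.19 for H2-Ab1 and -0.58 for H2-Eb1 in hAPOE3 mice, -0.24 for H2-Eb1 and -0.26 for H2-DMb1 in hAPOE4 mice, and -0.067 for H2-Aa, -0.065 for H2-Ab1 and -0.41 for H2-Eb1 with the genotypes averaged. limma gave -0.064 for H2-DMb1 and 0.48 for H2-DMb2 between the females and -0.025 for H2-Eb1 between the sexes of hAPOE3 mice, and without a filter H2-Oa was at 0.0028 between the females.

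Leaving out 1 mouse at a time gave a changed sign in 41 of 1060 values. The genotype difference then ran in males from -0.20 to 0.047 for Ciita, -0.36 to 0.0013 for H2-DMb1 and -0.32 to 0.034 for H2-Oa, and in females from -0.18 to 0.047 for H2-DMa, -0.090 to 0.25 for H2-DMb1, -0.28 to 0.12 for H2-DMb2 and -0.15 to 0.094 for H2-Oa. The sex difference ran in hAPOE3 mice from -0.33 to 0.52 for H2-Eb1, -0.039 to 0.42 for Ciita, -0.20 to 0.13 for H2-DMb1 and -0.33 to 0.43 for H2-DMb2, and in hAPOE4 mice from -0.098 to 0.19 for Ciita and -0.096 to 0.15 for H2-DMa. The interaction ran from -0.17 to 0.95 for H2-Ab1, -0.17 to 0.75 for Cd74, -0.39 to 0.068 for Ciita and -0.051 to 0.31 for H2-Oa. Pearson r changed sign without the 2 farthest mice for H2-DMb2 with Mrc1 (-0.053) and H2-DMa with Ttr (-0.047), with group means subtracted for Ciita (0.0031) and H2-Oa (-0.13) with Mrc1, in the 8 mice of lower Ttr for H2-DMa with Mrc1 (0.30) and H2-Oa with Ttr (-0.19), and in the 12 others for H2-DMb1 (-0.012) and H2-Oa (-0.39) with Mrc1 and H2-DMa with Ttr (-0.17). No paired analysis was made, because the groups hold different mice and the labels give no pairing between them. Counts of 4 to 692 per gene and mouse and 5 mice per group limit what could be called.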

Other observations

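The T cell marker Cd3d, a chain of the T cell receptor complex, was the only gene of the marker lists called within a sex. It was lower in hAPOE4 than in hAPOE3 mice by edgeR, at -2.22 ± 0.28 on the log2 scale in males (adjusted p = 0.000213) and -1.92 ± 0.28 in females (adjusted p = 0.00107). Of the other T cell markers 4 were under the filter on low counts, and Cd8a was at 0.17 ± 0.46 in males and 0.18 ± 0.44 in females. The summed level of the 6 markers ran from 0.949 to 1.43 CPM in hAPOE4 mice and from 2.11 to 4.25 CPM in hAPOE3 mice, and that of the 5 markers other than Cd3d from 0.441 to 0.970 CPM and from 0.295 to 0.849 CPM. The gap between the genotypes in the sum was thus that of Cd3d. Of the 5 red cell genes 0 were called. All 5 had negative differences between hAPOE4 and hAPOE3 mice in both sexes. Their median was -1.88 on the log2 scale in females and -1.20 in males, with lowest adjusted p of 0.387 and 0.604 by edgeR. Single mice stood high in the sum of the 5 genes, the hAPOE3 female S144 at 302.8 CPM, where the other 9 females lay between 9.17 and 31.9 CPM, and the hAPOE3 male S157 at 196.9 CPM, where the other 9 males lay between 15.9 and 81.8 CPM.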
